A study of Mus musculus with 30 samples.

Results

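Malat1 is a long noncoding RNA that is kept in the nucleus, where it gathers in nuclear speckles, the bodies that store splicing factors. It is abundant in most mammalian cells, is not translated, and a small tRNA-like RNA is cut from its 3' end by RNase P. Its gene lies next to that of Neat1, the RNA on which paraspeckles are built. On the spotted cDNA arrays studied here the Malat1 member was 1 spot of 22830 gene spots, in row 6 and column 20 of print-tip block 15, which the study lists as Malat1 and which is called the Malat1 spot here. No other spot carried the Malat1 full name (0 of 24192 spots).

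RNA of AtT-20 cells, which derive from a mouse pituitary tumour and are of corticotrope type, was collected after 1, 3, 6, 12 and 24 h with 100 nM human/rat CRH and hybridised together with RNA of untreated AtT-20 cells of the same time point. All cells, treated and untreated, had been deprived of serum before the treatment. CRH, the hypothalamic hormone that makes corticotropes release ACTH, acts through a receptor that raises cAMP. Each time point had 6 arrays, in which Cy3 marked the CRH-treated RNA on replicates 1 to 3 and Cy5 did on replicates 4 to 6. The 6 arrays of a time point carry 1 pair of RNA extracts and are technical replicates, so an SD over them covers the array procedure only. Independent samples exist only between the 5 time points.

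In all 30 scanner files the Malat1 spot was named receptor (calcitonin) activity modifying protein 2, that is Ramp2, a partner protein of calcitonin-type receptors, and the name Malat1 comes from the study's candidate list. The methods state that the identity of selected candidates was verified by sequencing their array clones, without saying which candidates. 1 further spot carried the Ramp2 name and is called the other Ramp2 spot. 3 spots carried the name RIKEN cDNA 9430072K23 gene, which RefSeq gives as a synonym of Malat1, and are called synonym spots A (block 43), B (block 44) and C (block 39). The study chose the Malat1 spot on these 30 arrays for how its ratio told the time points apart, so its values are described without a test, and tests were made on the further spots only.

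RefSeq places Malat1 on chromosome 19, bases 5795690 to 5802672 of GRCm38.p6, as a noncoding gene of 6983 bases. Its promoter window, 250 bases before to 50 bases after the start on the minus strand, is shown because the receptor of CRH raises cAMP and TGACG is the half-site of the cAMP response element. Capitals mark TGACG and its reverse complement CGTCA.
Malat1 promoter, chr19:5802623-5802922, minus strand: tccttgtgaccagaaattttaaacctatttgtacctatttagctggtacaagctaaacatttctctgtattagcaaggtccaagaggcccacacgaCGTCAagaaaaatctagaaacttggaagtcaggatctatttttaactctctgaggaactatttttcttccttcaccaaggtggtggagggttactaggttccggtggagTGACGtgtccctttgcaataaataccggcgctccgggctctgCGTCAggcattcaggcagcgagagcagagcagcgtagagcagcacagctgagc
This window held 3 matches. Of 32851 RefSeq promoter windows of that length, 20.8% held at least 1 match and 1.03% held at least 3. The full element TGACGTCA was found in 0 places of the Malat1 window and in 1.79% of all windows. A match is a string of letters and was not tied to any measurement on these arrays.

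The RNA on the Malat1 spot was below the untreated level late in the time course. At 24 h its log2 ratio, CRH-treated over untreated, was -0.81, -0.33 and -0.73 where Cy3 marked the CRH-treated RNA (the Cy3 orientation) and -0.76, -1.32 and -1.31 where Cy5 did (the Cy5 orientation). All 6 arrays were below 0, and the mean of -0.88 ± 0.38 (SD, n = 6) corresponds to 0.544 of the untreated level. At 12 h the ratios were -0.22, -0.40 and -0.28 in the Cy3 orientation and -0.57, -0.72 and -0.89 in the Cy5 orientation. These were also below 0 on 6 of 6 arrays, with a mean of -0.52 ± 0.26 (SD, n = 6).

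The early ratios were mixed. At 1 h they were 0.14, -0.28 and 0.02 in the Cy3 orientation and -0.49, -0.12 and -0.16 in the Cy5 orientation, with a mean of -0.15 ± 0.22 (SD, n = 6) and arrays on both sides of 0. At 3 h they were -0.37, -0.14 and -0.13 in Cy3 and -0.46, -0.41 and -0.62 in Cy5. After the loess correction used here they were thus below 0 on 6 of 6 arrays, with a mean of -0.35 ± 0.19 (SD, n = 6). At 6 h they were 0.86, 0.64 and 1.00 in Cy3 but -0.21, -0.38 and -0.37 in Cy5. The orientations did not overlap at 6 h, and their mean of 0.26 ± 0.64 (SD, n = 6) describes neither.

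**Figure D1:**
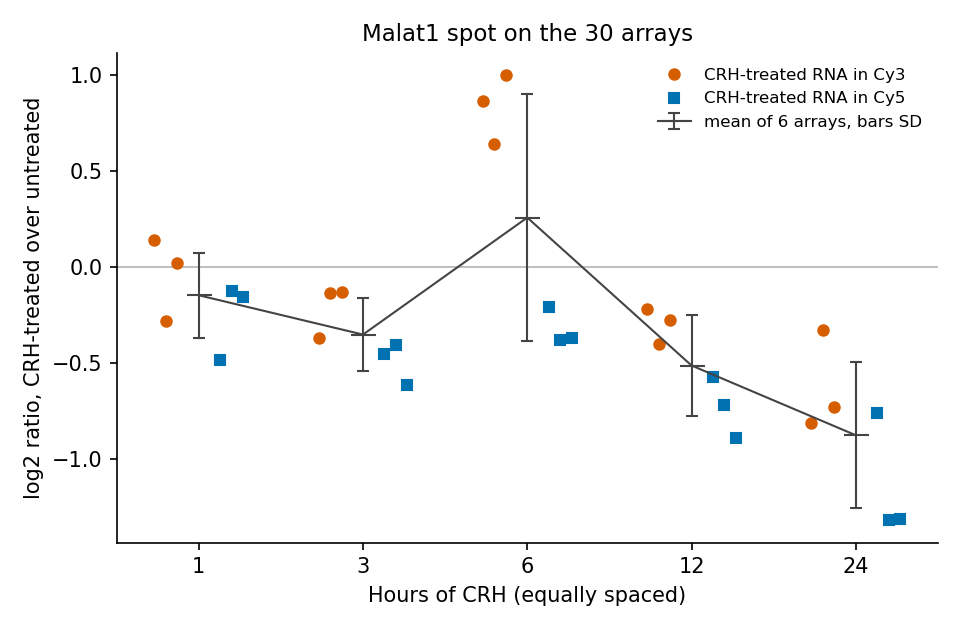
The y axis gives the log2 ratio, CRH-treated over untreated, of the Malat1 spot in 30 arrays, and the x axis the hours of CRH (equally spaced), with orange circles for CRH-treated RNA in Cy3, blue squares for Cy5 and a grey line through the mean of 6 arrays with bars of 1 SD. All 6 arrays lie below 0 at 3, 12 and 24 h, and the orientations lie on opposite sides of 0 at 6 h.

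In order of the mean, 24 h was lowest, followed by 12, 3, 1 and 6 h. No neighbours in this order were separated over all 6 arrays: the 24 h arrays ranged from -1.32 to -0.33 and the 12 h arrays from -0.89 to -0.22. With CRH-treated RNA in Cy5, the 24 h arrays (-1.32 to -0.76) lay below all 3 h arrays (-0.62 to -0.41) of that orientation. In Cy3, by contrast, the 24 h array at -0.33 lay among the 3 h arrays. The ratio was higher in the Cy3 than in the Cy5 orientation at every time, the gaps being 0.22, 0.28, 1.15, 0.43 and 0.51 in order of time.

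Set against the 14375 spots above the dim-spot limit (the lowest 10% of a channel) on every array, dimmer spots being left out, the 24 h mean of the Malat1 spot ranked 1 from the lowest and its 12 h mean 20 from the lowest. It ranked 249 at 3 h, 2755 at 1 h and 14085 at 6 h, the last of these near the upper end. A mean at least 1.5-fold below untreated with all 6 arrays below 0 was met by 7 of the 14375 spots at 24 h (0.0487%) and by 3 at 12 h (0.0209%). The Malat1 spot met it at 24 h only. The spot of these 7 nearest to the limit had a mean of -0.61, and the spot just outside it, also with 6 arrays below 0, had -0.58. All 6 arrays were below 0 in 2.21% of spots at 3 h, 2.09% at 12 h and 1.99% at 24 h. As the study chose the spot for its ratios, these ranks describe the choice. Within one orientation the 24 h value was less extreme in Cy3, where 5.29% of spots lay lower, than in Cy5, where 0.0139% did.

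The spot was bright in both channels throughout. Its intensity ranged from 1596.2 to 10509.0 in the CRH-treated channel and from 2078.4 to 11180.1 in the untreated channel, while its local background was at most 42.9. It was above the dim-spot limit on 30 of 30 arrays. Among gene spots of the same channel it stood between the percentiles 63.3 and 97.5 for CRH-treated RNA and between 74.6 and 97.3 for untreated RNA.

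At 24 h the spot was dimmer in the CRH-treated channel as scanned, before any correction for the brightness of the channels. With CRH-treated RNA in Cy3, replicates 1 to 3 gave 2386.1, 3136.0 and 2209.0 in the CRH-treated channel, against 8127.9, 8519.6 and 8151.9 in the untreated one. With the dyes exchanged, replicates 4 to 6 gave 6455.6, 2729.8 and 2247.4 in the CRH-treated channel, against 8005.0, 5062.1 and 3957.4 in the untreated one. On this spot the untreated channel was the brighter on 6 of 6 arrays in both orientations. On replicates 1 to 3 the median of all gene spots was also lower in the CRH-treated channel. It was 1193.3, 1297.0 and 1188.9 there, against 1824.3, 2174.7 and 1960.2 in the untreated one. The loess correction moved the ratios of replicates 1 to 3 by 0.96, 1.11 and 1.155 and those of replicates 4 to 6 by -0.45, -0.43 and -0.50. Replicate 4 stood apart from its orientation in both channels, being the brightest in each.

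At 12 h the scanned intensities separated in one orientation only. Replicates 1 to 3 gave 2175.3, 1596.2 and 1673.5 for CRH-treated RNA in Cy3, against 4241.3, 3405.5 and 3831.3 for untreated RNA in Cy5. Replicates 4 to 6 gave 3954.8, 3705.0 and 3727.2 for CRH-treated RNA in Cy5, against 3674.4, 3666.1 and 4426.0 for untreated RNA in Cy3. In that orientation the ratio as scanned was above 0 on replicates 4 and 5, and the loess correction moved the ratios of replicates 4 to 6 by -0.68, -0.74 and -0.64.

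The channels were also compared on a scale relative to the array, as the log2 of the intensity over the median of all gene spots of its channel. At 24 h the level was 1.16 ± 0.44 in CRH-treated RNA and 2.06 ± 0.23 in untreated RNA, and at 12 h it was 0.98 ± 0.37 in CRH-treated RNA and 1.504 ± 0.27 in untreated RNA (SD, n = 6). The level in CRH-treated RNA was the lower one on 6 of 6 arrays at both times. At 6 h the order was the other way round, with 2.48 ± 0.47 in CRH-treated RNA and 2.18 ± 0.45 in untreated RNA, higher in CRH-treated RNA on 6 of 6 arrays although replicate 4 had 2.14 in CRH-treated and 2.13 in untreated RNA. At 3 h the levels were 1.80 ± 0.35 in CRH-treated and 2.09 ± 0.26 in untreated RNA. At 1 h they were 1.84 ± 0.66 in CRH-treated and 1.95 ± 0.74 in untreated RNA.

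Over the time points the mean level in CRH-treated RNA on this scale spanned 0.98 at 12 h to 2.48 at 6 h, and that in untreated RNA spanned 1.504 at 12 h to 2.18 at 6 h. The lowest mean level was thus at 12 h in both, and the untreated level at 24 h, 2.06, lay inside the range of the earlier ones. As percentiles of the channel, the 24 h arrays ran from 64.7 to 83.9 for CRH-treated RNA and from 84.0 to 90.0 for untreated RNA, which did not overlap. A smaller share of cells with this RNA and less of it per cell cannot be told apart in such bulk RNA.

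**Figure D2:**
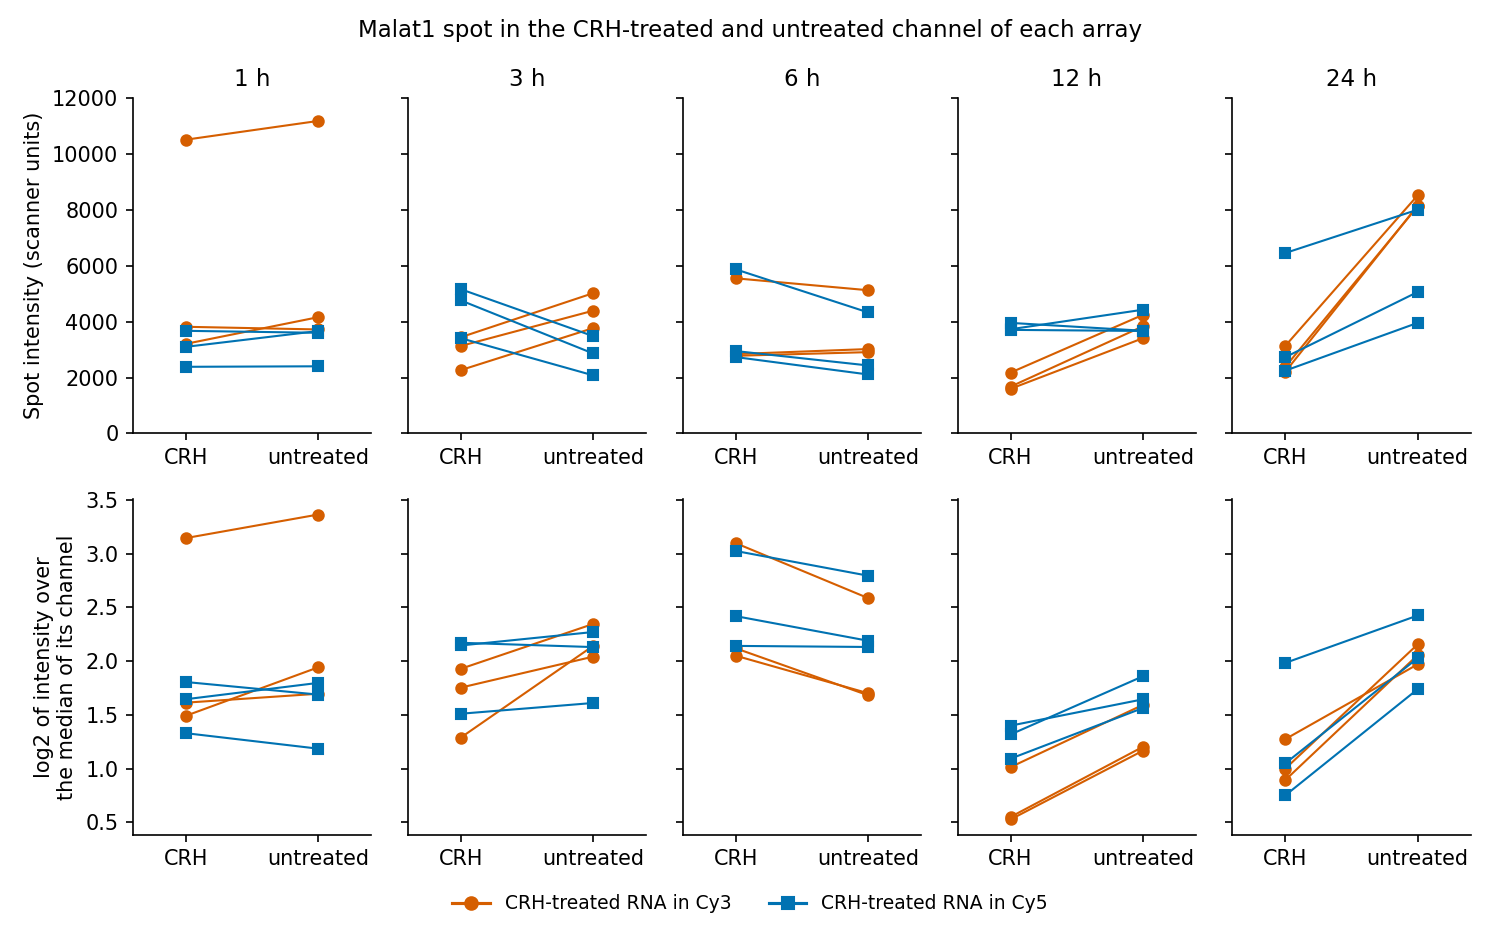
The Malat1 spot in the CRH-treated (left) and untreated (right) channel of each array, joined by a line, at 1, 3, 6, 12 and 24 h, as scanner intensity (upper row) and as log2 of the intensity over the median of gene spots of its channel (lower row). Orange circles mark the Cy3 orientation (CRH-treated RNA in Cy3) and blue squares the Cy5 orientation. In the lower row all 6 lines run upward to the untreated side at 12 and 24 h.

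At 6 h the sign in the Cy5 orientation depended on the normalization. The loess curve of the print-tip block moved the ratios of replicates 1 to 3 by 0.93, 0.72 and 0.88 and those of replicates 4 to 6 by -0.58, -0.82 and -0.65. With each array centred on its median instead, the 6 h ratios were 0.43, 0.36 and 0.53 in Cy3 and 0.01, 0.21 and 0.18 in Cy5, so that 6 of 6 arrays were above 0 with a mean of 0.29. The 24 h ratios with that centring were -1.15, -0.70 and -1.16 in Cy3 and -0.41, -1.004 and -1.004 in Cy5, again below 0 on 6 of 6 arrays with a mean of -0.91. The deposited ratios of the spot averaged -0.84 at 24 h and 0.21 at 6 h. At 3 h the ratios as scanned were -0.73, -0.49 and -0.54 in Cy3 but 0.71, 0.73 and 0.57 in Cy5. The loess curve moved the 3 h ratios of replicates 4 to 6 by -1.17, -1.14 and -1.18. With median centring replicate 5 of 3 h had 0.017, so that not all 3 h arrays were below 0.

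The day of quantification nearly coincides with the time point, and the share of the day in the ratios cannot be told apart from time for most pairs. The 3 and 6 h arrays shared a day, with means of -0.35 and 0.26. Their arrays overlapped across the orientations but not within either one. In Cy3 they ran from -0.37 to -0.13 at 3 h and from 0.64 to 1.00 at 6 h. In Cy5 they ran from -0.62 to -0.41 at 3 h and from -0.38 to -0.21 at 6 h. With median centring the Cy5 arrays overlapped, replicate 5 of 3 h having 0.017 and replicate 4 of 6 h 0.007. Replicates 5 and 6 of 12 h, both with CRH-treated RNA in Cy5, were quantified on the day of the 24 h arrays and had -0.72 and -0.89, against -1.13 ± 0.32 (SD, n = 3) for the 24 h arrays of that orientation. Replicate 4 of 12 h, of another day, had -0.57.

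Spots printed beside the Malat1 spot had 24 h ratios closer to 0. Of the 8 adjacent positions in print-tip block 15, 3 held spots measured on every array, and their 24 h means ran from -0.14 to -0.01. The lowest 24 h mean among the other 316 measured spots of that block was -0.59. None of them could be lower than the Malat1 spot, which had the lowest 24 h mean of all kept spots. At 3 h, however, the 3 adjacent spots had means of -0.56, -0.47 and -0.27, near or below the -0.35 of the Malat1 spot, while the median of the block was -0.03. The part of the print position in the 3 h value was not tested.

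The only synonym spot above the dim-spot limit on every array, spot A, had late ratios near 0. Synonym spot A at 24 h had -0.11, -0.03 and 0.29 with CRH-treated RNA in Cy3 and -0.49, -0.03 and 0.16 with it in Cy5, a mean of -0.04 ± 0.27 (SD, n = 6). At 12 h it had 0.11, 0.09 and 0.28 in Cy3 and -0.38, -0.09 and -0.35 in Cy5, a mean of -0.06 ± 0.27. Its means at 1, 3 and 6 h were 0.04 ± 0.59, 0.07 ± 0.40 and 0.14 ± 0.45, with the Cy3 orientation above the Cy5 orientation each time. The groups of arrays overlapped between all time points. The spot was dimmer than the Malat1 spot, with intensities from 554.2 to 3115.6 in the CRH-treated and from 410.2 to 3369.1 in the untreated channel, but above the dim-spot limit on 30 of 30 arrays. Among gene spots of the same channel it stood between the percentiles 25.9 and 81.5 for CRH-treated RNA. For untreated RNA these were 24.5 and 82.0, and its local background reached 209.6.

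No test called synonym spot A. Its mean over the 5 time points was 0.03 with a standard error of 0.06 (adjusted p = 0.985, limma on the 5 averages), where 8 of 14375 spots were called (0.0557%) and 5.44% had an unadjusted p under 0.05. Its mean of 12 and 24 h minus that of 1, 3 and 6 h was -0.13 with a standard error of 0.12 (adjusted p = 1.000, limma), where 0 of 14375 spots were called (0%) and 531 (3.69%) had an unadjusted p under 0.05. In a linear model over all arrays (n = 30) the time effect had p = 0.711, where 10.1% of spots had p under 0.01, and the interaction of time with dye orientation had p = 0.171, where 14.8% did. Such a p over arrays rests on repeated arrays of the same RNA, not on separate cultures.

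Synonym spots B and C were above the dim-spot limit on 24 of 30 arrays each and were tested only in a table without that limit. At 24 h spot B had a mean of 0.04 ± 0.37, from -0.33 to 0.59, and spot C one of -0.24 ± 0.62, from -1.20 to 0.46 (SD, n = 6). For both the Cy3 orientation was the higher one, with 0.34 in Cy3 and -0.26 in Cy5 for B and 0.19 in Cy3 and -0.67 in Cy5 for C. The mean over the time points was 0.01 with a standard error of 0.07 for B (adjusted p = 0.998, limma) and 0.10 with a standard error of 0.09 for C (adjusted p = 0.955, limma). The late minus early difference was -0.20 with a standard error of 0.15 for B and -0.06 with a standard error of 0.20 for C (adjusted p = 1.000 for both, limma over 22819 spots, of which 0 were called, 0%). Over all arrays (n = 30) the time effect had p = 0.0996 for B and p = 0.297 for C, where 7.04% of these spots had p under 0.01, and the interaction had p = 0.534 for B and p = 0.270 for C, where 11.2% did.

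The other Ramp2 spot was split by dye the opposite way. At 24 h it had -0.36, -0.42 and -0.43 with CRH-treated RNA in Cy3 and 0.21, 0.17 and 0.20 with it in Cy5, a mean of -0.10. Here the Cy5 orientation was the higher one, the reverse of the Malat1 spot. Its means at 1, 3, 6 and 12 h were 0.02, 0.26, -0.06 and 0.05. Its mean over the time points was 0.03 with a standard error of 0.06 (adjusted p = 0.985, limma). The late minus early difference was -0.10 with a standard error of 0.13 (adjusted p = 1.000, limma). Its time effect over all arrays (n = 30) had p = 0.00754, past the threshold that 10.1% of spots passed, or 0.0846 after adjustment over all spots. After the mean of each orientation was removed, the ratios of the Malat1 spot over the 30 arrays had an r of 0.08 with the other Ramp2 spot, 0.09 with synonym spot A, 0.13 with B and 0.18 with C. These are descriptions over arrays that share extracts within a time point.

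**Figure D3:**
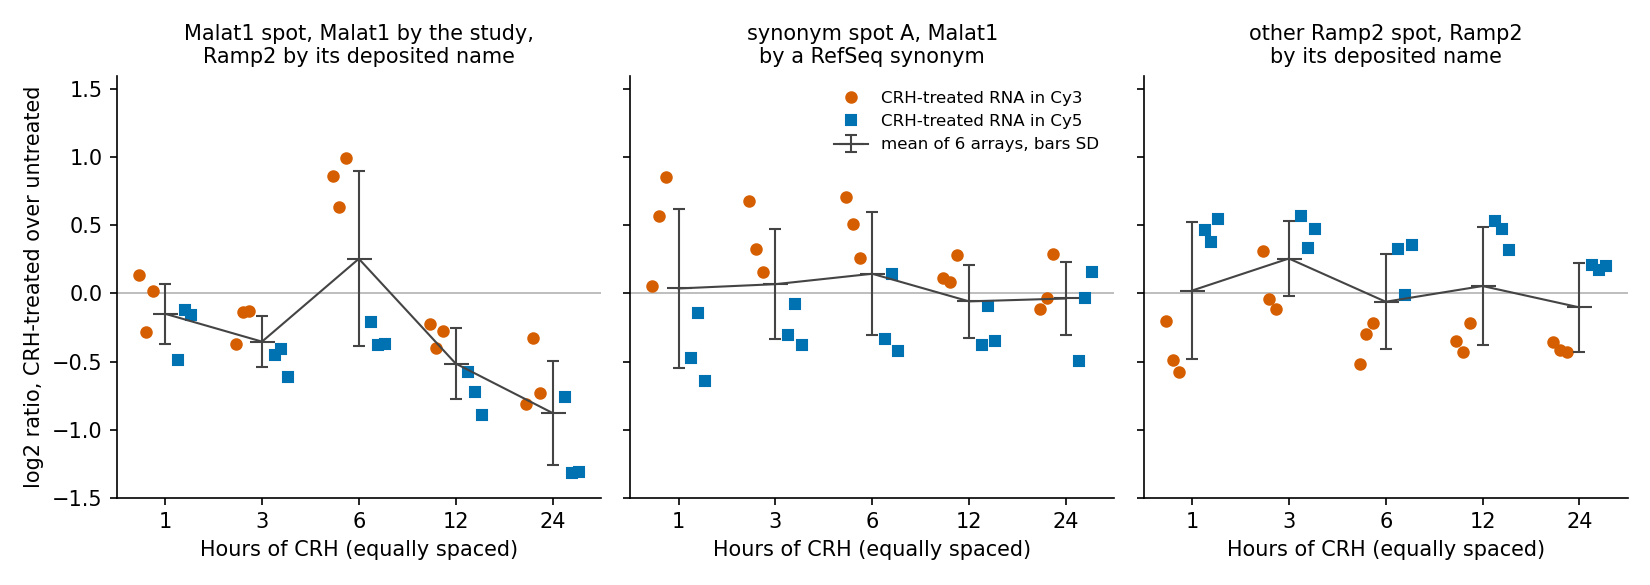
The y axes give the log2 ratio, CRH-treated over untreated, in 30 arrays, and the x axes the hours of CRH (equally spaced), for the Malat1 spot (left), synonym spot A (middle) and the other Ramp2 spot (right), with orange circles for CRH-treated RNA in Cy3, blue squares for Cy5 and the mean of 6 arrays with bars of 1 SD. At 24 h the means are -0.88 for the Malat1 spot, -0.04 for synonym spot A and -0.10 for the other Ramp2 spot.

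The genes whose ratios ran most like the Malat1 spot included lipid enzymes and a splicing factor. Likeness was Pearson's r over the 30 arrays after the mean of each dye orientation was removed, over 4481 spots with a gene symbol. It was highest for Hmgcs1, a synthase of the sterol pathway, at r = 0.68 on one spot and 0.62 on its other spot. Acsl4, an acyl-CoA synthetase, followed with 0.66, Fbxo33, an F-box protein, with 0.66, Rif1, a regulator of replication timing and DNA repair, with 0.63, and Srsf2 (SC35), a splicing factor whose protein marks nuclear speckles, with 0.62 on one spot and 0.37 on its other spot. Over all 14374 other spots r ran from -0.68 to 0.76 with a median of 0.01. Hmgcs1 and Acsl4 were, like Malat1, chosen by the study on these arrays.

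All 5 genes had a mean below 0 at 24 h, but Hmgcs1 and Acsl4 had one above 0 at 12 h. Hmgcs1, on the spot with the higher r, had -0.81 ± 0.27 and Acsl4 -0.55 ± 0.25 at 24 h, each below 0 on 6 of 6 arrays, but 0.40 ± 0.36 and 0.28 ± 0.30 at 12 h (SD, n = 6), where the Malat1 spot had -0.52. Srsf2 on spot 4962 had -0.55 ± 0.18 at 24 h and -0.01 ± 0.25 at 12 h. Fbxo33 had 0.33 ± 0.07 at 6 h and -0.17 ± 0.15 at 24 h. Rif1 had -0.61 ± 0.71 at 24 h, with an SD larger than its mean. The r of these genes rests on few time points, since the extracts are shared within a time point.

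The lowest r belonged to Stk35, a kinase, at -0.63, Lamtor5, a subunit of the Ragulator complex on lysosomes, at -0.59, Uggt1, which checks glycoprotein folding in the endoplasmic reticulum, at -0.57, 1500011B03Rik at -0.57 and Mageh1, a MAGE family member, at -0.56. Uggt1 had its lowest mean at 6 h, -0.53 ± 0.33, and Mageh1 its highest at 24 h, 0.71 ± 0.76 (SD, n = 6). A further spot of Lamtor5 had an r of 0.19, and further spots of 1500011B03Rik had -0.08 and -0.01, so the likeness differed between spots of one gene.

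**Figure D4:**
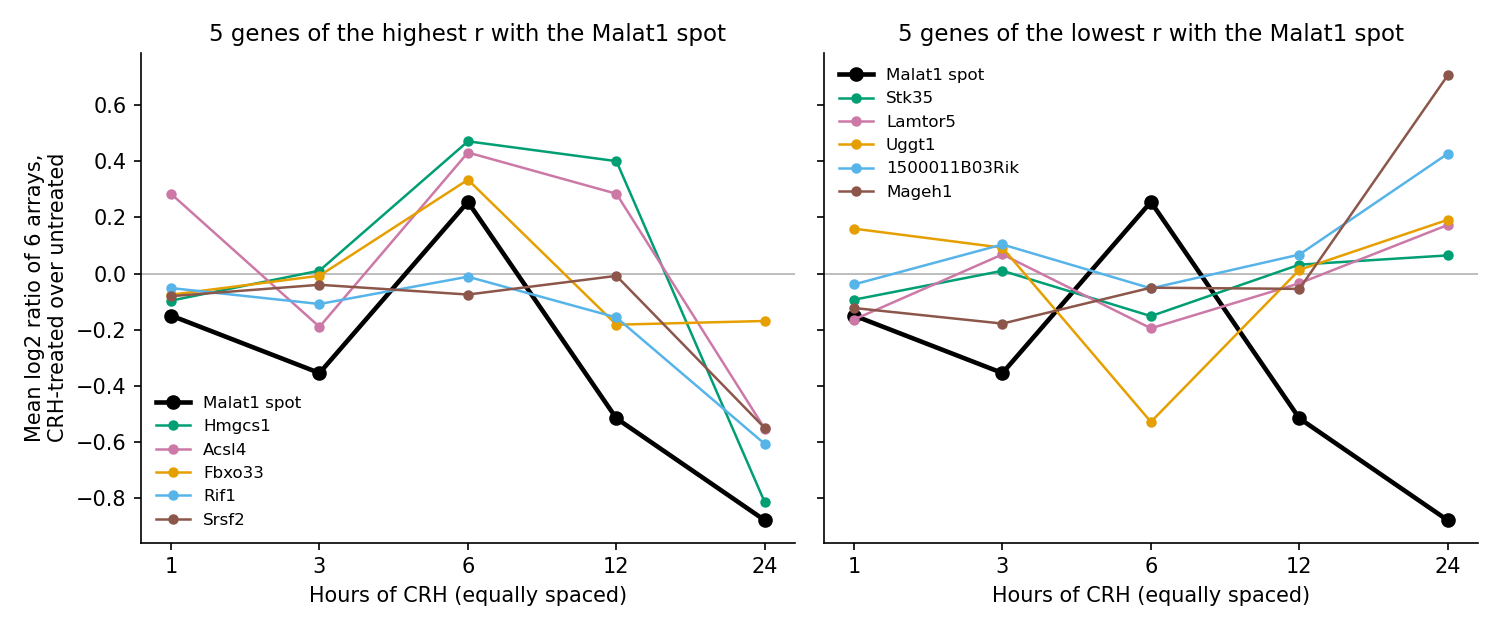
Mean log2 ratio of 6 arrays, CRH-treated over untreated (y axis), by hours of CRH (x axis, equally spaced) for the Malat1 spot (black) with the 5 genes of the highest (left) and of the lowest (right) Pearson's r with it over the 30 arrays. Hmgcs1 and Acsl4 fall below 0 at 24 h as the Malat1 spot does, at -0.81 and -0.55, but not at 12 h.

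Among the other 10 candidate genes of the study, Nf2, Pex13 and Cd3e were above 0 on 6 of 6 arrays at 24 h. Nf2, the tumour suppressor merlin, had 1.08 ± 0.22 at 24 h with an r of -0.51, Pex13, a peroxisomal membrane protein, had 0.76 ± 0.49 with -0.51, and Cd3e, part of the CD3 complex of T cells, had 0.60 ± 0.24 with -0.53 (SD, n = 6). Loxl3, a lysyl oxidase, was low at 12 h, -0.46 ± 0.46, but had -0.19 ± 0.38 at 24 h and an r of 0.39. Fosl2, a Fos family transcription factor, had an r of 0.38, Mat2a, which makes S-adenosylmethionine, 0.24, and Pebp1, a Raf kinase inhibitor, -0.34. Crem, a cAMP-responsive factor, was dim on some arrays and has no r.

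As in nearly the whole table, no spot was called by limma among the proteins of nuclear speckles and the splicing machinery. Of 30 listed genes, 23 were measured on 35 spots. For the mean over time 0 were called, beside 0.0557% of all spots, and for late minus early 0, beside 0%. An unadjusted p under 0.05 was found on 2 spots for the mean over time, beside 5.44% of all spots. For late minus early it was found on 3, beside 3.69% of all spots. Of these 3, 1 was higher (Rbm39, a splicing coactivator) and 2 were lower (Sf3a1 and 1 spot of Srsf11). Their median at 24 h was -0.12, beside -0.01 over all 14375 spots, and 23 of the 35 spots were below 0, beside 53.3% of all spots. Srsf2 was below 0 on 6 of 6 arrays at 24 h on both spots, with -0.55 ± 0.18 on spot 4962 and -0.44 ± 0.24 on spot 23693. Clk1, a kinase of SR proteins, had -0.31 ± 0.18, with 6 of 6 arrays below 0, and Rbm39 had 0.43 ± 0.44 at 12 h and 0.12 ± 0.14 at 24 h (SD, n = 6). Sf3b1 had 0.07 ± 0.06 at 24 h, with 6 of 6 arrays above 0. The time effect over arrays had p under 0.01 on 3 of the 35 spots, beside 10.1% of all spots, and the interaction of time with dye orientation had it on 9 of the 35, beside 14.8%.

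Among the proteins that bind or process Malat1, or form paraspeckles, no spot was called either, again as in nearly the whole table. Of 22 genes, 14 were measured on 24 spots. By limma 0 were called for the mean over time, beside 0.0557% of all spots, and 0 for late minus early, beside 0%. An unadjusted p under 0.05 was found on 2 spots for the mean over time, beside 5.44% of all spots. For late minus early it was found on 0, beside 3.69%. The median at 24 h was -0.07, beside -0.01 over all spots, and 18 of the 24 spots were below 0, beside 53.3% of all spots. The time effect had p under 0.01 on 3 of the 24 spots and the interaction with dye on 6, beside 10.1% and 14.8% of all spots. Matr3 (matrin 3), a nuclear matrix protein, had -0.47 ± 0.31 on spot 10239 with 6 of 6 arrays below 0, while its other 3 spots ranged from -0.39 to -0.09 with 3 or 4 arrays below 0. Sfpq, a core paraspeckle protein, had -0.25 ± 0.11 on spot 1970 with 6 of 6 arrays below 0 and -0.14 ± 0.44 on spot 7648. Mettl16, which in human cells binds the triple helix at the 3' end of MALAT1, had -0.01 ± 0.35 and -0.03 ± 0.19 on its 2 spots.

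Other long noncoding RNAs had 24 h ratios on both sides of 0. Of 16, 6 were measured on 10 spots, with a median of 0.01 at 24 h. By limma 0 spots were called for the mean over time, beside 0.0557% of all spots, and 0 for late minus early, beside 0%. An unadjusted p under 0.05 was found on 0 spots for the mean over time, beside 5.44% of all spots. For late minus early it was found on 2 of the 10, 1 higher and 1 lower, beside 3.69%. Neat1, the paraspeckle RNA encoded 22036 bases from Malat1, had 0.33 ± 0.56 at 24 h and 0.22 at 12 h on spot 4861, with an r of -0.36 with the Malat1 spot and 3 of 6 arrays on each side of 0 at 24 h. Its late minus early difference was 0.32 (adjusted p = 1.000, limma). The spot was above the dim-spot limit on every array, at a median percentile of 35.8 in the untreated channel. Meg3 had -0.09 ± 0.30 and -0.03 ± 0.18 on its 2 spots, and the 4 spots of Tug1 ranged from -0.33 to 0.16. Gas5, the host of several small nucleolar RNAs, had 0.05 ± 0.10.

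Like nearly all spots of the table, those of genes near Malat1 on chromosome 19 were not called. Of 16 genes within 184134 bases, 7 were measured on 9 spots. By limma 0 were called for the mean over time, beside 0.0557% of all spots, and 0 for late minus early, beside 0%. Before adjustment, p was under 0.05 on 0 of the 9 spots for the mean over time, beside 5.44% of all spots, and on 1, Neat1, for late minus early, beside 3.69%. Their median at 24 h was 0.0028. Rela, a subunit of NF-kappaB, had -0.08 ± 0.42 at 24 h (SD, n = 6).

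Of 9 listed corticotrope genes, 5 were measured on 7 spots. At 24 h 3 of these spots had a mean below 0 and 4 above, with a median of 0.02. Neurod1, a transcription factor of the lineage, had -0.56 ± 0.53 and -0.61 ± 0.25 on its 2 spots with 6 of 6 arrays below 0, and Tbx19, the corticotrope factor TPIT, had -0.21 ± 0.32. Pomc, the precursor of ACTH, had 0.20 ± 0.21, Cpe, a prohormone-processing enzyme, 0.17 ± 0.17 and 0.02 ± 0.39, and Scg2, a granule protein, 0.04 ± 0.24 (SD, n = 6). In untreated channels the median percentile of a spot, which depends on the probe as well as on the RNA, ranged from 39.3 (Tbx19) to 98.4 (1 spot of Cpe), with Pomc at 95.0. Of 7 genes of other pituitary lineages 1 was found on the array by symbol and measured, Gh, the growth hormone, at percentile 25.9. The others of that list had no spot with their symbol, so their level is unknown. Of 7 fibroblast and leukocyte genes 4 were measured on 5 spots, the 4 collagen spots at percentiles from 33.1 to 51.3 and the Cd3e spot at 89.0, and their median at 24 h was 0.18. The median intensity of gene spots in a channel ranged from 481.8 to 2174.7, and the median SD of a spot over the 6 arrays of a time point from 0.274 to 0.353 on the log2 scale. Precision is limited by the few arrays and by the 1 pair of RNA extracts of each time point, which further arrays would not change.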

How the data were processed

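Per array, the authors deposited spot intensities and local background intensities of Cy3 and Cy5 without normalization, and a table of normalised log2 ratios of 12593 spots. The spot names in these files are those of the array's design. Empty spots (1170) and control spots (192) were left out. A gene spot was kept (14375) if it was above the dimmest 10% on all arrays and with both dyes. Log2 ratios were taken without background subtraction, corrected by loess in each of 48 print-tip blocks (span 0.75, 4 iterations) and turned to CRH-treated over untreated. limma 3.58.1 in R 4.3.3 was run on the 5 averages, with Benjamini-Hochberg adjustment over all spots and a threshold of 0.05. Linear models over 30 arrays used p under 0.01, after the study. All were tested on simulated data. In 1 file channel 1 holds Cy5. Named were the spots by name or synonym, the study's candidates, the 5 highest and 5 lowest genes by r, 4 gene lists and 3 lists of cell type markers. Symbols came from the study's list, exact gene names or RefSeq synonyms. Members and lists were chosen with earlier results of these data known. The alternatives were background subtraction, normexp, median centring, 1 loess curve, deposited ratios, each dye orientation alone, the median, arrays or time points left out, no dim-spot limit, another variance prior and the replicate number or day as a block.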

Additional observations from a re-analysis of the deposited data

Results flagged for a closer look

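On the 1 h array of replicate 3, the Malat1 spot was far brighter than on the other 1 h arrays in both channels, with a log2 level over the channel median of 3.14 in CRH-treated RNA and 3.36 in untreated RNA. The gap to the nearest other array took up 73.8% of the range in CRH-treated RNA and 65.2% in untreated RNA. The ratio of that array, 0.02, lay among the others, and without it the 1 h level was 1.58 in CRH-treated and 1.66 in untreated RNA, which was tried after seeing the data. The other Ramp2 spot also stood apart on that array, at 4.60 in CRH-treated and 5.48 in untreated RNA. Its other 1 h arrays had at most 2.995 in CRH-treated and 3.009 in untreated RNA. Synonym spot A had 1.39 in CRH-treated and 0.59 in untreated RNA on replicate 3, its highest and its lowest 1 h level. The reason was not tested.

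Synonym spot A had an untreated level of -1.27 on the 3 h array of replicate 3, below the other 3 h arrays by a gap of 66.9% of the range. Chance sets apart about 1 in 20 groups, and 30 groups were looked at.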

How the results depend on the processing

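The mean ratio of the Malat1 spot stayed below 0 at 1, 3, 12 and 24 h under 14 alternatives each. Those that used part of the same 6 arrays, or their median, could not move it by the SD of those arrays. With all 6 arrays below 0 at 3, 12 and 24 h, they could not change its sign there either. Among the alternatives of background and normalization, the 24 h mean ran from -0.91 (median centring) to -0.84 (deposited ratios). Over all 14 alternatives, it ranged at 24 h from -1.13 (CRH-treated RNA in Cy5 only) to -0.62 (in Cy3 only). The mean ranged from -0.73 to -0.30 at 12 h, from -0.49 to -0.21 at 3 h and from -0.26 to -0.04 at 1 h. At 6 h it ranged from -0.32 in Cy5 to 0.83 in Cy3. With 1 array left out at a time it lay between -0.99 and -0.79 at 24 h and between 0.11 and 0.38 at 6 h. No test of synonym spot A passed its threshold under any alternative run: late minus early lay between -0.25 (median centring) and -0.10, and the CRH effect between 0.0027 and 0.053. Counts of called spots moved more: for the CRH effect 8 spots became 0 without the dim-spot limit or with the robust and trended prior, and between 4 and 44 with 1 time point left out (44 without 1 h, 5 without 6 or 24 h, 4 without 12 h). With the day as a block 457 spots had a time effect, in place of 1448, but these counts answer different questions. With that block time is compared only within a day, 3 with 6 h and 12 with 24 h. With the replicate number as a block, synonym spot A had p = 0.691 for time (n = 30 arrays) and 1255 spots passed, against 1448 without it. Same-numbered arrays of different time points did not deviate together, with a median r across spots of 0.00 over 60 pairs, so the numbers do not pair arrays. Array number and the few extracts limit the precision, and the 2 dim synonym spots lay below the limit on 6 arrays each.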
